A study of Mus musculus with 79 samples.

Results

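The 6 libraries compared here, of 79 in the whole series, are mouse embryonic fibroblasts that received 3-deazaneplanocin A (DZnep), an inhibitor of adenosylhomocysteinase (AHCY), and that were collected at circadian time (CT) 12 or CT24, counted in hours after synchronization. They are the 3 libraries of each time in 1 deposited table of gene expression, and the comparison is CT24 against CT12. It asks which genes still change with time while the enzyme is inhibited, and which go on responding to the drug. All cells came from embryos on a C57BL/6J background, carried no labelled genetic change, were grown to confluence in DMEM with 10% serum, and were exposed for 1 h to 100 nM of the glucocorticoid dexamethasone, which synchronizes the clocks of a culture. DZnep was dissolved in dimethyl sulfoxide (DMSO), and neither its dose nor the length of exposure is given in the labels. Whether the cells at CT24 had been exposed for longer than those at CT12 is therefore unknown. The 6 libraries of cells of the same kind given DMSO, 3 at each of the same times, are used only as the point of comparison. Each group has 3 libraries labelled as biological replicates, and nothing says whether they came from separate embryos or cultures, so p-values measure the spread between these libraries.

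AHCY breaks down S-adenosylhomocysteine, the product of every methyl transfer from S-adenosylmethionine. When the product builds up it inhibits methyltransferases of RNA, DNA and histones, among them the Polycomb enzyme EZH2. Confluent fibroblasts run a circadian clock after a glucocorticoid pulse, and the culture can also drift with time. Time after the pulse can thus carry both a clock signal and such a drift.

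Levels are fragments per kilobase scaled to library size (FPKM), so that genes can be compared per length. Changes are on the log2(FPKM + 1) scale, CT24 minus CT12, with the standard error of limma, a linear model fitted across all genes, and a gene is called at a Benjamini-Hochberg adjusted p under 0.05. FPKM summed to between 261949 and 328810 in the DZnep libraries, and 10388 to 10481 genes reached 1 FPKM. Replicates correlated at 0.992 to 0.997 within both DZnep groups and at 0.960 to 0.981 in DMSO at CT24, where replicate 2 stood apart with 196 FPKM of the nuclear RNA Malat1 against 42.1 to 96.5 in the other 11 libraries. The main differences between the DZnep and the DMSO change are therefore given with and without that library, and all 58 called differences of named genes kept their sign and their call without it. The 58 also stayed called without replicate 3 of DMSO at CT24, which held the lowest Malat1, 42.1 FPKM. More genes were called without either library than with all of them, so these fits are a weak check of the calls. Some of the 58 lost their call without another single library. Of 15 fibroblast markers, 14 reached 1 FPKM in every group. The sum of the 15 ran from 2761 to 3245 FPKM with DZnep, below the 4868 to 5162 FPKM at CT12 and 4468 to 5499 FPKM at CT24 in DMSO. With DZnep, those of epithelial, endothelial, macrophage and skeletal muscle cells summed to at most 13.8 FPKM, and 8 to 11 markers of each of these types had a mean under 0.1 FPKM. The 12 adipocyte markers, 8 of them under 0.1 FPKM, summed to 23.9 to 26.8 FPKM at CT12 and 12.8 to 13.8 FPKM at CT24 with DZnep, and to 14.9 to 19.5 and 7.505 to 10.9 FPKM in DMSO. The 15 markers of bone and cartilage, 7 or 8 of them under 0.1 FPKM with DZnep, summed to 49.5 to 52.8 and 42.5 to 45.4 FPKM, well above the 6.84 to 12.6 and 10.9 to 15.1 FPKM in DMSO. The 14 neural markers, 9 of them under 0.1 FPKM, summed to 18.6 to 23.0 and 24.6 to 27.6 FPKM with DZnep, and to 25.6 to 28.0 and 21.2 to 24.5 FPKM in DMSO. The part of such cells in the results was not tested. In a bulk sample a smaller share of some cells and less RNA per cell cannot be told apart. Ahcy itself, on chr2:155059310-155074497 (GRCm38), held 28.8, 30.1 and 31.5 FPKM at CT12 and 19.0, 20.1 and 21.1 FPKM at CT24, a change of -0.48 ± 0.05. The inhibitor acts on the protein, so this level does not test the treatment.

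With DZnep, 5886 of 10526 genes tested (55.9%) were called between CT12 and CT24, 3050 higher (29.0%) and 2836 lower (26.9%). On the values as deposited, without the rescaling of libraries, the split was 2116 higher and 3615 lower, and the median change of all genes moved from 0.02 to -0.06. Most changes were small, and 66 genes rose and 71 fell at least 2-fold (0.627% and 0.675%), beside 92 and 147 in DMSO (0.844% and 1.35% of 10896). The 3 CT24 libraries lay above the 3 CT12 libraries for 2598 genes with DZnep (24.7%) and below them for 3197 (30.4%). In DMSO 5529 of 10896 genes (50.7%) were called. The DMSO counts, here and for the gene lists, come from a fit of all 12 libraries, the 12-library fit. DZnep counts come from a fit of its 6 libraries, so the 2 are not on equal terms. The 12-library fit called the DZnep change for fewer genes, 2113 higher and 1940 lower of 10896. Across the 2 fits 1958 genes were called higher and 1923 lower in both treatments, 18.6% and 18.3% of the 10526. Only 110 genes (1.05%) were called in opposite directions. The test of the difference, DZnep change minus DMSO change, called 666 of 10896 genes (6.11%), 349 with a more positive change with DZnep (3.20%) and 317 with a more negative one (2.91%). It called 526 and 434 genes without replicate 2 of DMSO at CT24, 1076 and 863 without replicate 3 of that group, and 145 to 297 and 149 to 251 without any one of the other 10 libraries. Among the called genes that had been tested in both fits, the DZnep change was the larger in size for 232 genes (2.20%) and the DMSO change for 400 (3.80%). The plot of both changes shows this spread around the line of equal change.

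**Figure D1:**
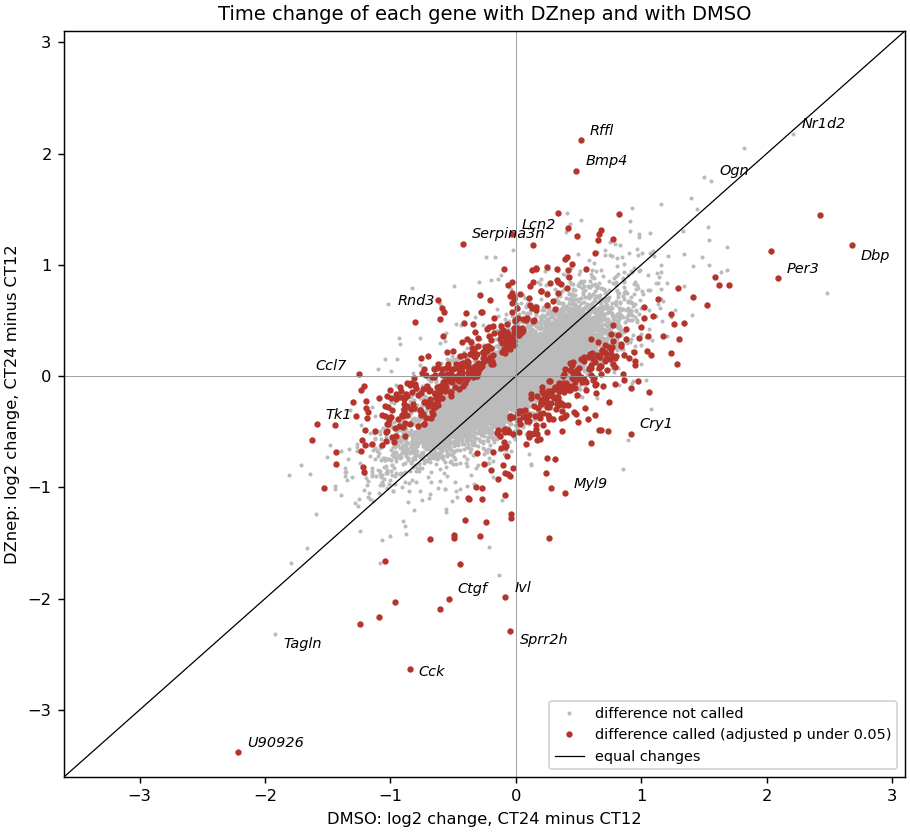
Each point is 1 of 10526 genes, with its log2 change from CT12 to CT24 in DMSO on the x axis and with DZnep on the y axis. Red points are genes whose difference between the changes was called, and Ctgf, Sprr2h and Bmp4 lie far from the line of equal change while Nr1d2 and Ogn lie near it.

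Ctgf, a secreted matrix-associated protein and a standard target of the YAP and TGF-beta pathways, fell steeply with DZnep. It lies on chr10:24595442-24598683, where GENCODE vM21 names it Ccn2. Its levels were 142, 121 and 135 FPKM at CT12 and 27.2, 33.2 and 30.7 FPKM at CT24. All CT24 libraries lay far below all CT12 libraries, and in DMSO the levels were 9.49, 9.99 and 8.46 FPKM at CT12 and 4.87, 5.66 and 6.61 FPKM at CT24, below every DZnep library. The change was -2.00 ± 0.08 (limma adjusted p = 6.0e-06) with DZnep and -0.54 in DMSO, a difference of -1.47 ± 0.14 (-1.45 without the library that stood apart). The fall thus narrowed a gap that at CT12 stood at 3.64 on the log2 scale to 2.18 at CT24.

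Bmp4, a ligand of the bone morphogenetic protein (BMP) pathway on chr14:46383520-46390669, went the other way. It held 4.24, 5.06 and 5.66 FPKM at CT12 and 17.2, 21.2 and 19.9 FPKM at CT24 with DZnep, and 2.37 to 2.47 and 3.08 to 3.83 FPKM in DMSO. The CT24 libraries with DZnep stood above all other 9 fibroblast libraries. The change was 1.85 ± 0.09 (limma adjusted p = 1.3e-05) with DZnep and 0.48 in DMSO, with a difference of 1.36 ± 0.13 (1.40 without the library that stood apart). Of the 28 tested genes of the BMP pathway, 8 were higher and 11 lower at CT24, with a median of 0.03 beside 0.02 over all genes, and 9 were not called. Of all genes 29.0% were higher and 26.9% lower. In DMSO 8 were higher and 8 lower, and the 12-library fit called 6 higher and 8 lower with DZnep. On deposited values 5 were higher and 12 lower, and the count lower was 7 without replicate 2 of DZnep at CT12.

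Among targets, Id2, an inhibitor of basic helix-loop-helix factors, fell from 50.4, 52.2 and 51.8 FPKM to 15.3, 16.7 and 15.9 FPKM, by -1.54 ± 0.04. Its fall in DMSO was -1.66, and the difference of 0.12 was not called. Id3 changed by -1.10 and Atoh8, a basic helix-loop-helix factor, by -0.65, also with no called difference in the fit of all libraries. That of Atoh8 was 0.39 and called without replicate 3 of DMSO at CT24. Id1 at -1.14, Id4 at -1.43 and the receptor-regulated SMAD gene Smad9 at -0.58 were chosen after their values were seen. Id4 and Smad9 had called differences from the DMSO change of -0.94 and -0.75, and Smad9 did not fall in DMSO. The ligand gene therefore stood higher at CT24 while 4 Id genes stood lower.

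**Figure D2:**
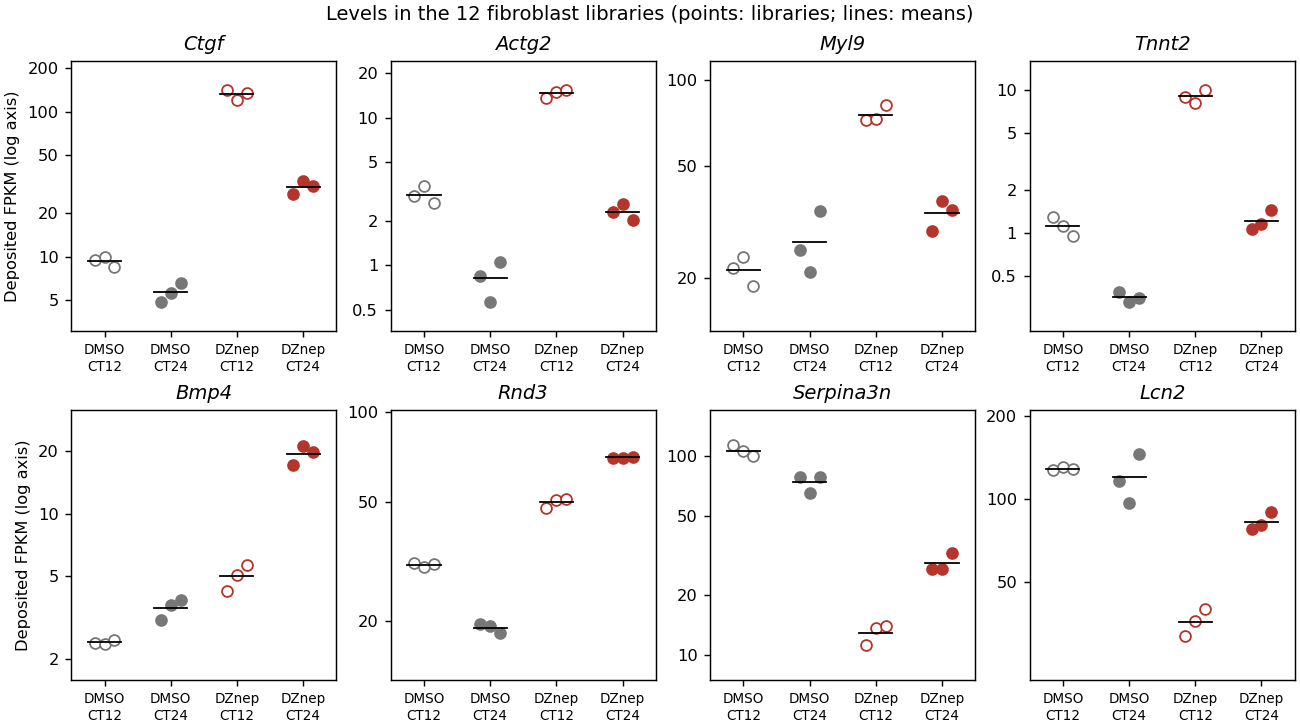
Deposited FPKM on log axes in each of the 12 libraries for 8 genes, with DMSO in grey, DZnep in red, CT12 open, CT24 filled and the mean of 3 libraries as a line. Ctgf, Actg2, Myl9 and Tnnt2 were high with DZnep at CT12 and fell, Bmp4 and Rnd3 were above DMSO and rose, and Serpina3n and Lcn2 were below DMSO at CT12 and rose.

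Genes of the contractile and adhesion programme driven by SRF and YAP did not move as 1 block. Of 31 tested, 13 fell and 10 rose, with a median of -0.13, against 11 and 11 with a median of 0.17 in DMSO, and on deposited values 18 fell and 9 rose. Of all genes 26.9% fell and 29.0% rose with DZnep. Smooth muscle genes and Ctgf had the steepest falls. Tagln, an actin-binding smooth muscle protein, went from 181, 173 and 185 FPKM to 29.0, 37.4 and 33.7 FPKM. The groups did not approach each other, and the change of -2.31 ± 0.08 was not called different from the -1.92 in DMSO. Acta2, smooth muscle alpha-actin and the usual mark of myofibroblasts, changed by -1.68 with DZnep and -1.09 in DMSO. Its difference of -0.60 was not called with all libraries, but was -0.80 and called without the library that stood apart. Actg2, the enteric smooth muscle actin, fell from 13.6, 15.0 and 15.4 FPKM to 2.30, 2.60 and 2.04 FPKM, by -2.16 against -1.09 in DMSO, with a called difference of -1.07 (-1.17 without the library that stood apart).

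Myl9, a regulatory light chain of non-muscle and smooth muscle myosin, fell from 72.5, 72.9 and 81.6 FPKM to 29.4, 37.6 and 34.7 FPKM with DZnep, by -1.05 ± 0.08. In DMSO it rose by 0.39, and the difference of -1.44 (-1.58 without the library that stood apart) was called. Outside the list, Tnnt2, cardiac troponin T, fell from 8.91, 8.12 and 9.99 FPKM to 1.07, 1.15 and 1.44 FPKM, with a difference of -1.49 from DMSO (-1.50 without the library that stood apart). The 4 called differences of the list, among them those of Ctgf, Actg2 and Myl9, were all negative, and the negative count was 8 without replicate 2 and 7 without replicate 3 of DMSO at CT24.

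Srf, Vcl, Zyx and Actg1 of the same list, chosen after their values were seen, had positive changes in both treatments. Srf, the factor itself, changed by 0.61 with DZnep and 0.41 in DMSO. The focal adhesion genes Vcl and Zyx changed by 0.70 and 0.85 with DZnep and by 0.86 and 0.87 in DMSO. Cytoplasmic gamma-actin, Actg1, changed by 0.54 with DZnep and 0.48 in DMSO.

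The 250 bases before the start of 20 of the tested members were in the RefSeq promoter table (GRCm38.p6). Of these, 6 held the CArG box, the site known for SRF, against 482 of all 32851 promoters (1.47%). A gene was counted if any of its promoters held the box, whereas the background counts single promoters. The list was also chosen as SRF and YAP targets, so setting these shares side by side is not a test. The motif is CC, then 6 bases that are each A or T, then GG, and it reads as the same motif on both strands. Of those 6 genes Srf, Actg1, Vcl and Cnn2 rose, Myl9 fell and Fhl2 was not called. The promoters of a gene that fell and of 3 that rose are shown to set the same box beside opposite changes, each 5′ to 3′ on the strand of the gene, with the box in capitals. The stretches are chr2:156775214-156775463 on the plus strand for Myl9, chr11:120348496-120348745 on the minus strand for Actg1, chr14:20929148-20929397 on the plus strand for Vcl and chr17:46556163-46556412 on the minus strand for Srf.
Myl9 promoter: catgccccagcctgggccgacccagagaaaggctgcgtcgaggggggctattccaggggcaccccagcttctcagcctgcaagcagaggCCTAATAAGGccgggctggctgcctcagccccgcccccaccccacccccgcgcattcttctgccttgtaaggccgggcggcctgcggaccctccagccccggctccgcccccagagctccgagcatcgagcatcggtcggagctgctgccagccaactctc
Actg1 promoter: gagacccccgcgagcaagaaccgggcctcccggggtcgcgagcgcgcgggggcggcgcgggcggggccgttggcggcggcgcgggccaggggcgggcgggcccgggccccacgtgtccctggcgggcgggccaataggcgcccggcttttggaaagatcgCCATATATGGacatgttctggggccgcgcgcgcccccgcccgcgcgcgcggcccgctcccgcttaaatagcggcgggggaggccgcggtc
Vcl promoter: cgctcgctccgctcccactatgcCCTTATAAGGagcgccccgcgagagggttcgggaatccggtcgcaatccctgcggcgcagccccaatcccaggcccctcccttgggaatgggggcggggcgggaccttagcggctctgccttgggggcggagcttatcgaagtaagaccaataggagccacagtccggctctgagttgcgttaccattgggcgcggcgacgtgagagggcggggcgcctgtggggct
Srf promoter: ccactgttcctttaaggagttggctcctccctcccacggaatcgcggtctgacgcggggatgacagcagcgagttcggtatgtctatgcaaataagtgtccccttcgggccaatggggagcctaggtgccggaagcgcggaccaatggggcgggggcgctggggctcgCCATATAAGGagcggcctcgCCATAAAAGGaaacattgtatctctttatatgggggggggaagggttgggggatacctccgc
The box begins 161 bases before the start of Myl9, 90 before that of Actg1 and 227 before that of Vcl, and Srf has 2 boxes, 82 and 62 bases before its start. A match describes these letters and does not show that a factor binds there.

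Among inflammatory and acute phase genes, most of those called rose with DZnep and most of those called fell in DMSO. Of 26 tested secreted or surface genes of this list, 14 rose and 5 fell with DZnep, with a median of 0.37. In DMSO 2 of 28 rose and 14 fell, with a median of -0.26. The 12-library fit called 14 rises and 4 falls of 28 with DZnep. Over all genes 29.0% rose and 26.9% fell with DZnep, and 26.8% rose and 23.9% fell in DMSO. The difference was positive and called for 11 of 28 and negative for none, against 3.20% and 2.91% of all genes. Without replicate 2 of DMSO at CT24, 12 were positive and 1 negative. The positive count was 16 without replicate 3 of that group, and 8 to 11 without any one other library. The acute phase genes Lcn2, Serpina3n, Serpina3g and C3 all stood below DMSO at CT12.

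Lcn2, the iron-carrier-binding lipocalin, went from 31.6, 35.9 and 39.8 FPKM to 77.7, 80.5 and 89.3 FPKM. The DZnep groups did not overlap, and the 6 DMSO libraries were higher still, at 96.7 to 146 FPKM. Its change was 1.28 ± 0.08 with DZnep and -0.03 in DMSO, a difference of 1.30 (1.18 without the library that stood apart). Serpina3n, a secreted protease inhibitor of the acute phase, rose from 11.3, 13.8 and 14.0 FPKM to 27.3, 27.3 and 32.7 FPKM, by 1.19 ± 0.09. In DMSO it fell by 0.42 on the log2 scale, from 101 to 114 FPKM down to 65.1 to 79.1 FPKM, and the difference of 1.61 (1.54 without the library that stood apart) was the most positive of the genes named by the rule. Its close relative Serpina3g, which may share reads with it, changed by 0.96. Complement C3 went from 132, 148 and 155 FPKM to 341, 335 and 342 FPKM, by 1.31 ± 0.06 against 0.68 in DMSO. Here both treatments rose, and the difference of 0.64 (0.66 without the library that stood apart) was called.

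Among the chemokines, some rose with DZnep and others held their level. Cxcl5, which draws neutrophils, went from 15.8 to 17.9 FPKM up to 25.9 to 27.8 FPKM, by 0.74 with DZnep against 0.04 in DMSO, and the difference of 0.70 was lost without any one of 6 of the 12 libraries. Ccl5, a chemoattractant of T cells, was low and rose by 0.69 with DZnep against -0.62 in DMSO, with a difference of 1.31. Ccl7, a chemoattractant of monocytes, held 572, 549 and 576 FPKM at CT12 and 508, 577 and 534 FPKM at CT24 with DZnep, groups that overlapped, while in DMSO it fell from a range of 390.0 to 439.9 FPKM to one of 145 to 204 FPKM. Its change was 0.02 with DZnep (not called) and -1.25 in DMSO, a difference of 1.27 (1.21 without the library that stood apart). Its neighbour in function Ccl2, chosen after its values were seen, changed by -0.24 against -1.30. Not every gene of the list held or rose, since Il6 at -1.04 and the prostaglandin synthase Ptgs2 at -0.85, also chosen after their values were seen, fell with DZnep and their differences from DMSO were not called.

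Of 17 tested interferon-stimulated genes 12 rose and none fell with DZnep (median 0.24), beside 29.0% and 26.9% of all genes. On deposited values 8 rose, and in the 12-library fit 10 of 20 did. In DMSO 8 of 20 rose and 1 fell, with a nearly equal median of 0.23, and the difference was called for 3, all positive. Ifit3, an antiviral protein with tetratricopeptide repeats, went from 2.83, 3.34 and 4.13 FPKM to 10.3, 10.2 and 11 FPKM, by 1.46 ± 0.10 against 0.82 in DMSO. The groups were well apart, and the difference of 0.63 was called, though not without replicate 1 of DMSO at CT12 or replicate 3 of DZnep at CT24. Ifit2 of the same family changed by 0.87 against 0.33, a difference of 0.54 that was lost without replicate 2 of DZnep at CT12 or replicate 1 of DZnep at CT24, and Stat2 and Bst2 rose by 0.38 and 0.69 with no called difference. The markers of macrophages and blood cells summed to 10.5 to 13.8 FPKM at CT12 and 12.8 to 13.3 FPKM at CT24 with DZnep, and 8 or 9 of the 12 were under 0.1 FPKM, while their part in these changes was not tested.

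**Figure D3:**
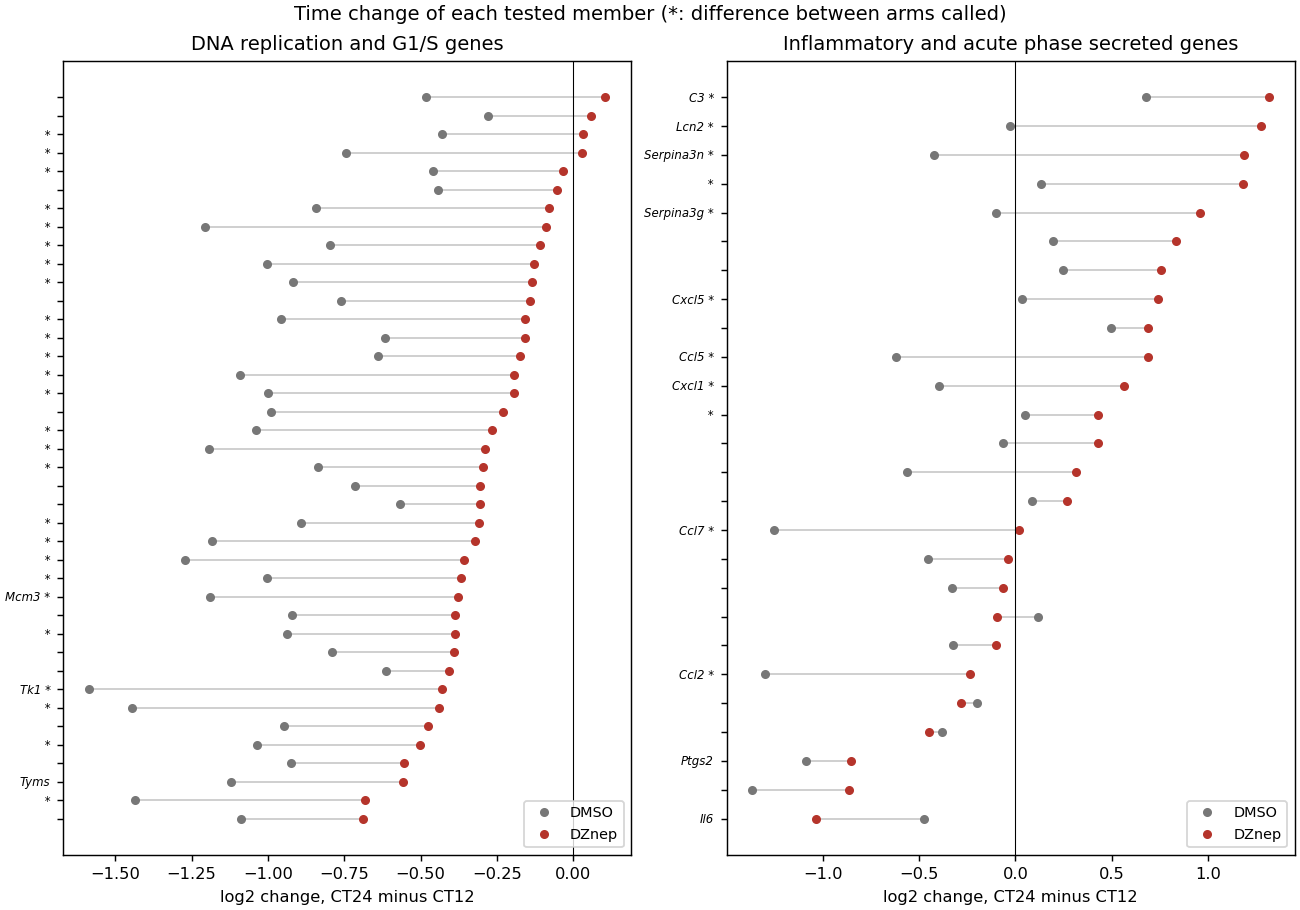
Log2 change from CT12 to CT24 of each tested member of 2 gene lists, with DMSO in grey and DZnep in red joined by a line, a star where the difference was called, and names for the genes described in the text. All 40 replication genes lie further right with DZnep than with DMSO, and so do 22 of 26 inflammatory genes.

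DNA replication genes fell less with the drug. Of 40 tested genes of replication and entry into S phase, 31 fell and none rose with DZnep (median -0.29). In DMSO all 40 fell (median -0.93). Over all genes 26.9% fell with DZnep and 23.9% in DMSO. All 40 had a more positive change with DZnep, against 5287 of the 10526 genes tested in both fits, and the difference was called for 26 of them and for 28 without replicate 2 of DMSO at CT24. It was called for 14 to 16 without any one of replicates 1 and 2 of DMSO at CT12, replicate 2 of DZnep at CT12 or any library of DZnep at CT24. The 12-library fit, which takes its spread from both treatments, called 19 of the falls with DZnep.

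Tk1, the thymidine kinase of S phase, went from 58.9, 61.6 and 67.2 FPKM to 39.7, 46.8 and 43.7 FPKM with DZnep. The fall was clear of overlap but shallow beside DMSO, where the gene went from 61.5 to 71.7 FPKM down to 15.7 to 28.9 FPKM. The change was -0.43 ± 0.06 against -1.59, a difference of 1.16 (1.00 without the library that stood apart). Mcm3, a subunit of the replicative helicase, went from 105, 107 and 104 FPKM to 74.0, 77.8 and 76.1 FPKM, by -0.38 against -1.19, with a difference of 0.81 (0.65 without the library that stood apart) that was not called without replicate 1 of DMSO at CT12. Tyms, which makes thymidylate, changed by -0.56, and its difference of 0.56 was not called. That difference was 0.73 and called without replicate 3 of DMSO at CT24. For mitosis 22 of 35 genes fell and 1 rose with DZnep, against 25 and none in DMSO, and the 12-library fit called 14 falls with DZnep. Cdc20, an activator of the anaphase-promoting complex, changed by -0.65 and -0.59 and Plk1, a mitotic kinase, by -0.46 and -0.48 with DZnep and DMSO.

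Ribosome biogenesis genes fell in both treatments. All 30 ribosome biogenesis genes fell with DZnep (median -0.65) and 29 of 30 in DMSO (median -0.70), beside 26.9% and 23.9% of all genes. Nolc1, a nucleolar chaperone, went from 73.4, 72.2 and 73.0 FPKM to 37.3, 39.4 and 38.6 FPKM, by -0.82 against -1.22 in DMSO. Nop56 of the box C/D ribonucleoprotein changed by -0.79 against -1.43. In each treatment both genes fell with no overlap between the times. Their differences of 0.40 and 0.64 were called with all libraries, but were lost without any one of 9 libraries for Nolc1 and of 5 for Nop56.

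Of 30 nuclear-encoded respiratory chain genes 25 fell and none rose with DZnep, and 17 fell in DMSO, with 13 of the DZnep falls called in the 12-library fit and 16 without replicate 2 of DZnep at CT12. Atp5g1, a c-ring subunit of ATP synthase, changed by -1.05 and cytochrome c, Cycs, by -0.90. Of 32 genes of the ATF4 amino acid response 23 fell and 2 rose (21 and 1 in the 12-library fit), and 21 fell in DMSO. Shmt2, the mitochondrial serine hydroxymethyltransferase, went from 136, 135 and 136 FPKM to 60.4, 68.3 and 64.0 FPKM, by -0.98 against -1.08 in DMSO. The asparagine synthetase gene Asns changed by -0.82 against -0.76, and neither difference was called. Of 23 cholesterol synthesis genes 15 fell and 1 rose (10 and 1 in the 12-library fit), against 17 and none in DMSO. Among them was Sqle, squalene epoxidase, at -0.54 against -0.88 in DMSO. Of 24 cytosolic chaperone genes 16 fell and 3 rose (11 and 1 in the 12-library fit), against 12 and 1 in DMSO. Hspd1 and Hspe1, the pair of mitochondrial chaperonins placed in that list, changed by -0.88 and -0.97. Of 35 cytosolic ribosomal protein genes 15 fell with DZnep and 2 in DMSO, where 23.9% of all genes fell. The DZnep count was 1 in the 12-library fit, 8 under quantile normalization and 23 with the replicate number as a block, and such genes may share reads with near-identical copies.

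**Figure D4:**
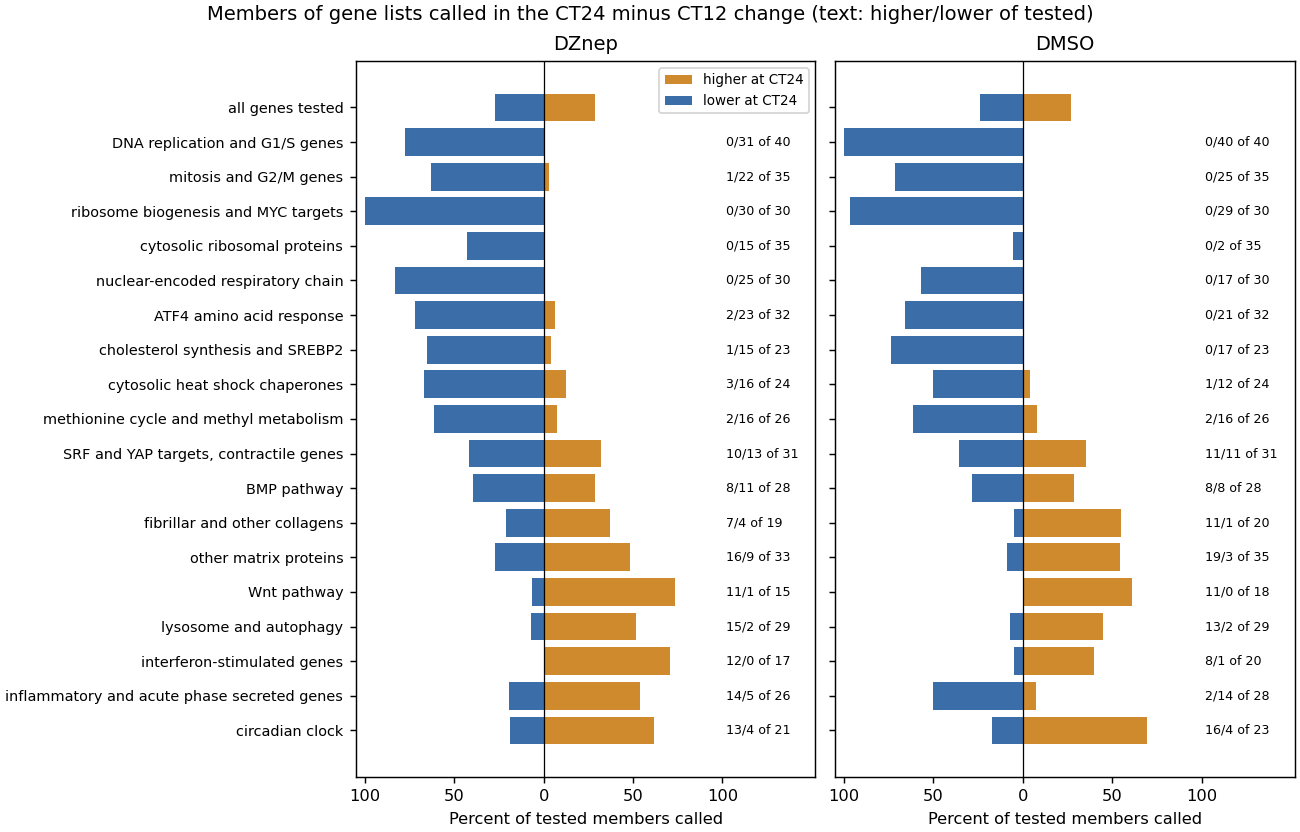
Percent of the tested members of each gene list that were called higher (orange) or lower (blue) at CT24 than at CT12, with DZnep on the left and DMSO on the right and the counts at the right edge. Over all genes 29.0% were higher and 26.9% lower with DZnep, and the inflammatory list has its longer bar on the higher side with DZnep and on the lower side in DMSO.

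Genes of methyl metabolism fell in like numbers in both treatments. Of 26 methionine cycle, folate and polyamine genes 16 fell and 2 rose with DZnep (median -0.27), with the same counts in DMSO (median -0.41). The 12-library fit, from which the DMSO counts come, called 13 falls and 1 rise with DZnep. Mthfd2, the mitochondrial folate enzyme, changed by -0.98 against -1.18, and Srm, spermidine synthase, by -0.61 against -0.47, with no called difference. Amd1, which makes decarboxylated S-adenosylmethionine for polyamines, changed by -0.43 against -0.73, and its difference of 0.31 was called with all libraries but not without any one of 10 of them. Of 34 histone and DNA methyltransferase genes 11 rose and 9 fell, shares near the 29.0% and 26.9% of all genes. Of 20 genes of Polycomb repressive complex 2 and the H3K27 demethylases 7 rose and 3 fell, against 6 and 4 in DMSO, but 1 each way in the 12-library fit. Ezh2, the catalytic subunit and a known indirect target of DZnep, went from 28.7, 26.8 and 26.7 FPKM to 18.3, 17.7 and 17.3 FPKM, by -0.51 against -0.42 in DMSO, without a called difference.

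Clock genes mostly moved in the same direction as in DMSO, and some moved by less. Of 21 tested clock genes 13 rose and 4 fell with DZnep (median 0.48), and 16 of 23 rose and 4 fell in DMSO (median 0.69). The 12-library fit, from which the DMSO counts come, called 12 rises and 3 falls of 23 with DZnep. Over all genes 29.0% rose and 26.9% fell with DZnep, and 26.8% rose and 23.9% fell in DMSO. Without any one library of DZnep at CT24, 17 genes passed the filter on low values and the rises numbered 8 or 9. The difference was called for 8 of 23 clock genes, 6 with a more negative and 2 with a more positive change with DZnep. It was called for 6.11% of all genes.

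For the nuclear receptors of the loop no difference from DMSO was called. Nr1d2, a REV-ERB repressor of Arntl, went from 4.31, 4.45 and 4.69 FPKM to 24.2, 20.9 and 22.6 FPKM, by 2.18 ± 0.07 against 2.21 in DMSO, and the difference of -0.03 had a standard error of 0.21. Its partner Nr1d1 went from 3.78, 3.48 and 3.87 FPKM to 13.9, 14.1 and 15.6 FPKM, by 1.79 against 1.50. Both genes had their groups far apart. Rora, the activator that competes with them, changed by 1.39 with DZnep, where all CT24 libraries lay at 1.72 to 2.28 FPKM, and by 0.91 in DMSO, where replicate 3 at CT24 held 0.279 FPKM against 1.56 and 2.09 FPKM in the others. Arntl, the activator that they control, fell by 0.84 on the log2 scale against 1.10 in DMSO.

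The output factors of the PAR bZIP family parted. Hlf rose from 0.957 to 1.07 FPKM up to 4.19 to 4.73 FPKM, by 1.51 against 1.45. Dbp reached 2.89, 3.45 and 3.34 FPKM from 0.873, 0.920 and 0.988 FPKM with DZnep, whereas in DMSO it reached 9.69 to 13.3 FPKM from 0.822 to 1.19 FPKM. Its change of 1.18 ± 0.07 was well under the 2.68 in DMSO, with a difference of -1.50 (-1.60 without the library that stood apart). Tef changed by 1.45 against 2.43, a difference of -0.98 (-0.99 without that library) that was lost without any one of 6 libraries, and its CT12 level with DZnep, 10.3 to 10.9 FPKM, was above the 3.35 to 6.24 FPKM in DMSO. Nfil3, the repressor that opposes them, changed by -0.19 with DZnep and 0.33 in DMSO, with a difference of -0.51, and its DZnep change was not called without any one of 4 of the 6 libraries.

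Among the repressors of the negative limb, Cry1 was the 1 tested clock gene called in opposite directions besides Nfil3. It fell from 5.38, 4.99 and 5.34 FPKM to 2.91, 3.39 and 3.12 FPKM with DZnep, while in DMSO it rose from 1.43 to 1.93 FPKM to 3.56 to 3.93 FPKM. The change was -0.52 ± 0.06 against 0.92, a difference of -1.43 ± 0.11 (-1.44 without the library that stood apart). Cry2 changed by 0.65 against 1.13. Its difference of -0.49 was not called with all libraries, but was -0.56 and called without replicate 3 of DMSO at CT24. Per2 and Per3 changed by 0.82 and 0.88 against 1.70 and 2.09, with differences of -0.88 (-0.76 without that library) and -1.21 (-0.95 without it, and not called without any one of 4 other libraries), and Per1 by 0.70 against 1.16 with no called difference. Clock at 0.08, Csnk1d at 0.04, Csnk1e at -0.01 and Timeless at 0.00 were not called with DZnep. The replication fork partner of Timeless, Tipin, changed by -0.29 against -0.89, and both had called positive differences, 0.45 and 0.60. The members Bhlhe40 and Bhlhe41 rose by 0.48 and 0.32, that of Bhlhe41 not without replicate 2 of DZnep at CT12 or replicate 3 at CT24, and Npas2, Fbxl21, Rorb and Usp2 were too low for the fit of the 6 DZnep libraries.

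**Figure D5:**
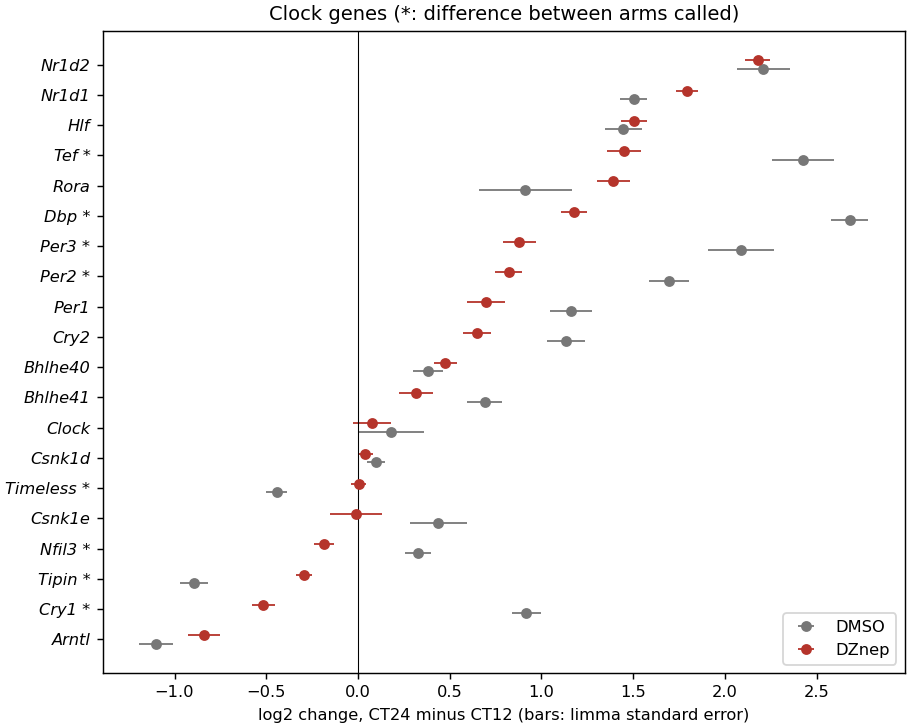
Log2 change from CT12 to CT24 of 20 tested clock genes with the limma standard error, with DMSO in grey and DZnep in red. Nr1d2, Hlf and Bhlhe40 have nearly the same change in both, Dbp, Tef and Per3 a smaller rise with DZnep, and Cry1 the opposite direction.

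The E-box CACGTG, the site known for CLOCK and ARNTL, reads the same on both strands. It was in the 250 bases before the start of 4 of 16 tested clock genes found in the promoter table. Of all 32851 promoters 1978 held it (6.02%). A gene was again counted if any of its promoters held the box, and the list was chosen as clock genes, so these shares are not a test. The 4 genes were Per1, Tef and Bhlhe41, which rose, and Cry1, which fell. The promoters of Per1, on chr11:69098699-69098948 of the plus strand, and Cry1, on chr10:85185055-85185304 of the minus strand, are shown because the same box stands before genes that moved in opposite directions with DZnep, with the box in capitals.
Per1 promoter: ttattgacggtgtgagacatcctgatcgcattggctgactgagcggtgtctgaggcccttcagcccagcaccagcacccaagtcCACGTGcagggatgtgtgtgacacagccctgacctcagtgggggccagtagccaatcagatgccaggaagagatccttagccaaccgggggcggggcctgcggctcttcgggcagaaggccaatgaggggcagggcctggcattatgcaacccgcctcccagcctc
Cry1 promoter: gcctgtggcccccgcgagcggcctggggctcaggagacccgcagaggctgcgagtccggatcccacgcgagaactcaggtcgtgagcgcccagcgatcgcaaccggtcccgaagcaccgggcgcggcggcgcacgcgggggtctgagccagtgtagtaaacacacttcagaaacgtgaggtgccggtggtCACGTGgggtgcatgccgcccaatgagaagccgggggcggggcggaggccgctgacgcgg
The box begins 166 bases before the start of Per1 and 60 before that of Cry1.

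Of 33 tested matrix proteins other than collagens 16 rose and 9 fell with DZnep, and in DMSO 19 of 35 rose and 3 fell. Of 19 collagens 7 rose and 4 fell with DZnep, or 6 and 2 in the 12-library fit, and in DMSO 11 of 20 rose and 1 fell. Beside the 29.0% and 26.9% of all genes, the share of matrix proteins that fell and both shares of the collagens with DZnep were not far from the background. Ogn, a small leucine-rich proteoglycan, went from 25.7, 26.8 and 28.8 FPKM to 88.4, 87.6 and 88.5 FPKM, by 1.76 ± 0.05 against 1.55 in DMSO. The 2 groups were tight and far apart, and the difference was not called. Thbs2, an anti-angiogenic thrombospondin, changed by 1.19 against 0.79 and Lama4, a laminin chain of basement membranes, by 1.08 against 1.21. The fibrillar collagen Col3a1 went from 32.8, 33.6 and 34.6 FPKM to 50.2, 51.7 and 53 FPKM, by 0.69 against 0.32 in DMSO, where its level was 222 to 279 FPKM. Nid2, a basement membrane linker, rose by 0.71 but by 1.41 in DMSO, a difference of -0.70 (-0.63 without the library that stood apart).

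Of the enzymes that process matrix, Loxl3, a lysyl oxidase, fell from 43.6, 41.6 and 42.1 FPKM to 20.7, 23.7 and 21.9 FPKM with DZnep, while the 6 DMSO libraries held 27 to 34 FPKM. The DZnep groups lay on either side of the DMSO range, and the change was -0.82 ± 0.05 against -0.02, a difference of -0.80 (-0.77 without the library that stood apart). Its relatives Loxl2 and Lox rose by 0.79 and 0.82. Timp1, an inhibitor of matrix metalloproteinases, fell by 1.47 on the log2 scale against 1.06 in DMSO, with no called difference.

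Sprr2h and Ivl, a pair of genes known from the cornified envelope of skin and at or near 0 in DMSO, fell steeply with DZnep. Sprr2h, a small proline-rich envelope protein whose family members may share reads, held 9.00, 7.24 and 10.5 FPKM at CT12 and 0.826, 0.914 and 0.965 FPKM at CT24. Ivl, involucrin, held 7.53, 6.96 and 7.81 FPKM and then 0.910, 1.08 and 1.08 FPKM. In every DMSO library both were at most 0.108 FPKM. The changes were -2.29 ± 0.11 and -1.99 ± 0.07. The differences from DMSO, -2.25 and -1.90 (-2.26 and -1.91 without the library that stood apart), were the most negative among the named genes. Both genes were near 0 in DMSO at both times, so these differences largely repeat the DZnep changes. The epithelial marker list, of which 11 of 15 members were under 0.1 FPKM with DZnep, summed to 9.86 to 12.5 FPKM at CT12 and 6.75 to 8.13 FPKM at CT24, and its part in these changes was not tested.

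The remaining genes with the largest falls were U90926, Cck, Gjb2 and Mrps10. U90926 went from 49.4, 40.7 and 37.3 FPKM to 2.16, 3.60 and 3.14 FPKM, by -3.38 ± 0.15 against -2.21 in DMSO, with a difference of -1.16 (-1.11 without the library that stood apart) that was not called without replicate 1 of DMSO at CT12. Cck, the peptide hormone cholecystokinin, went from 33.3, 31.1 and 36.6 FPKM to 4.12, 5.06 and 3.66 FPKM, by -2.63 against -0.85, with a difference of -1.79 that was -2.17 without the library that stood apart and not called without replicate 3 of DZnep at CT24. For both genes the groups were separated by a wide gap. Gjb2, the gap junction protein connexin 26, changed by -2.22 against -1.24. Mrps10, a mitochondrial ribosomal protein, changed by -1.79 and scattered more, from 3.68 to 7.03 FPKM at CT24, and its difference of -1.65 was not called. That difference was called at -1.95 without the library that stood apart and at -1.27 without replicate 3 of DMSO at CT24.

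Among the largest rises were Rffl, Ces1a, Dtx4, Rab3il1, Agt and Gas1. Rffl, a ubiquitin ligase whose locus overlaps Lig3, went from 0.959, 0.893 and 1.01 FPKM to 7.21, 6.39 and 8.17 FPKM, by 2.12 ± 0.09 against 0.52 in DMSO, where it held 3.96 to 6.97 FPKM. All its CT12 libraries lay below every DMSO library, at CT24 the treatments overlapped, and the difference of 1.60 (1.64 without the library that stood apart) was called. Gas1, a membrane protein that binds Hedgehog ligands and accumulates in arrested cells, went from 66.4, 79.9 and 80.1 FPKM to 181, 201 and 211 FPKM, by 1.47 against 0.34, a difference of 1.13 (0.97 without that library). Ces1a, a carboxylesterase, changed by 2.05 against 1.82, Dtx4, a Deltex ubiquitin ligase, by 1.61 against 1.40, and Rab3il1, an exchange factor for Rab proteins, by 1.55 against 1.16. The angiotensin precursor Agt changed by 1.51 against 0.92. With all libraries none of these last 4 differences was called. That of Rab3il1 was 0.45 and called without replicate 3 of DMSO at CT24. Tubb3, a beta-tubulin best known from neurons, held 10.8, 12.0 and 13.0 FPKM and then 14.6, 16.5 and 17.1 FPKM, by 0.49 against -0.80 in DMSO, a difference of 1.29 (1.05 without that library). Of the genes that fell in both treatments, Tnfrsf12a, the receptor of the cytokine TWEAK, changed by -1.68 against -1.80 and Nme1, a nucleoside diphosphate kinase, by -1.24 against -1.59.

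Genes that go on responding to the drug were defined as those called on the same side of DMSO at CT12 and at CT24, with a called difference and a called DZnep change on that side. These comparisons set separately deposited tables beside each other and share libraries, so their overlap is a definition and not a result. Of 10896 genes 51.6% were called between DZnep and DMSO at CT12 and 56.6% at CT24. The definition held for 59 genes moving up (0.561%) and 16 moving down (0.152%) of 10526. Bmp4 was the first of the genes named among those moving up.

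Rnd3, an atypical small GTPase that opposes actin contraction, held 47.7, 50.9 and 51.0 FPKM at CT12 and 70.1, 70.1 and 70.8 FPKM at CT24, while in DMSO it went from 30.3 to 31.3 FPKM down to 18.2 to 19.7 FPKM. The groups with DZnep rose apart as those in DMSO fell apart, by 0.58 ± 0.04 and -0.57, with a difference of 1.15 ± 0.08 (1.17 without the library that stood apart). Marcks, an actin-binding substrate of protein kinase C, went from 89.3, 87.3 and 87.0 FPKM to 140, 144 and 155 FPKM, by 0.82 against -0.06. Arl4c, a small GTPase of the ADP-ribosylation factor family, changed by 0.97 against 0.16. The chemokines Cxcl1 and Cxcl10 changed by 0.56 and 0.18 against -0.40 and -0.70, with differences of 0.96 and 0.89, and the DZnep change of Cxcl10 was not called without any one of 5 of the 6 libraries.

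Of the genes below DMSO that fell further, Ngef, a guanine nucleotide exchange factor known from ephrin signalling in neurons, went from 5.15, 4.82 and 5.33 FPKM to 1.91, 2.54 and 2.06 FPKM. The 6 DMSO libraries held 7.53 to 9.62 FPKM, above every DZnep library, and the change was -0.88 ± 0.08 against -0.06, with a difference of -0.81 (-0.84 without the library that stood apart). Ptprn, a membrane protein of dense-core vesicles, changed by -0.39 against 0.29. Col5a1, a chain of fibrillar collagen V, went from 28.7, 30.1 and 30.8 FPKM to 22.9, 23.9 and 23.6 FPKM, by -0.25 against 0.33, a difference of -0.58 (-0.43 without that library) that was lost without any one of 10 libraries. Kazald1, a secreted protein with a Kazal domain, changed by -0.54 and Cc2d2a, of the ciliary transition zone, by -0.28. Their differences of -0.65 and -0.53 were lost without any one of 8 and of 10 libraries, and Nfil3 completed the 6 named.

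Of 15 tested Wnt pathway genes 11 rose and 1 fell with DZnep (median 0.38) and 11 of 18 rose in DMSO (median 0.35). In the 12-library fit, from which the DMSO count comes, 10 of 18 rose and 1 fell with DZnep. Over all genes 29.0% rose and 26.9% fell with DZnep, and 26.8% rose and 23.9% fell in DMSO. Rspo2, an enhancer of Wnt signalling, went from 4.40, 5.03 and 5.24 FPKM to 9.42, 10.3 and 9.64 FPKM, by 0.95 against 0.42, with a difference of 0.53 (0.52 without the library that stood apart), and the groups did not overlap. The antagonist Sfrp1 changed by 0.47 against -0.07, a difference of 0.54 that was lost without any one of 4 libraries. Of 29 lysosome and autophagy genes 15 rose and 2 fell with DZnep, against 13 and 2 in DMSO, and Lipa, the acid lipase, changed by 0.78. With DZnep 12 rose and none fell in the 12-library fit. The rises numbered 11 on deposited values and 22 under quantile normalization. Of 30 p53 targets 15 rose and 2 fell with DZnep (11 and 1 in the 12-library fit), against 9 and 8 in DMSO. With DZnep 9 rose on deposited values and 23 under quantile normalization. Fas, the death receptor, changed by 0.58 against -0.27, a difference of 0.84, and Btg2, an antiproliferative gene, by 0.38 against -0.07, a difference of 0.45. Klf4, an early-response transcription factor, went from 29.6, 30.7 and 31.6 FPKM to 43.3, 48.5 and 46.3 FPKM, by 0.66 against -0.03. Of 26 immediate early genes 6 rose and 9 fell with DZnep, beside 29.0% and 26.9% of all genes, and in DMSO 7 and 10 of 28. With DZnep the counts were 3 and 12 on deposited values and 3 and 9 without replicate 3 of DZnep at CT24. Fosl1 at -0.94 and Myc at -0.54 were among those that fell. The growth factor gene Igf2 changed by 0.35 against -0.07, a difference of 0.41 that was lost without any one of 8 libraries.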

How the data were processed

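The 12 fibroblast libraries were sequenced after TRIzol extraction of RNA and TruSeq RNA v2 preparation, per the labels' protocols. Per the submitters' processing notes, the genome was mm10 and the tools were TopHat2 2.1.1, Cufflinks 2.2.1, bcl2fastq 2.18.0.12 and Trimmomatic 0.36. The authors deposited 1 table of values per gene for each treatment, read here as FPKM from their sums and the named tools, since the unit is not given in the sources used here. Read depth and the strand setting are unknown, so reads of overlapping or antisense genes may be mixed, as may those of near-identical copies.

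All 12 libraries were put on 1 scale by each library's median ratio to the gene-wise geometric means, and limma 3.58.1 (R 4.3.3) with an intensity trend was fitted to log2(FPKM + 1). That scale understates changes of low genes. The DZnep time change came from the 6 DZnep libraries, over genes at 1 FPKM or more in at least 3 of them, and all other comparisons from a fit of the 12 libraries. P-values were Benjamini-Hochberg adjusted over all genes tested. The fits were tested on simulated data.

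Named genes, with a mean of at least 5 FPKM in the higher group and no predicted models, were the 12 largest non-overlapping changes each way, the 6 largest each way called in both treatments, the 8 largest differences each way, the 6 largest each way that went on responding, Ctgf, Bmp4, Ahcy, the clock list, and up to 5 called members per list with the smallest p. Gene locations are from GENCODE vM21 and promoters from RefSeq. The members and gene lists were chosen with earlier results of these data known, and some genes are not reported here. Alternatives were another pseudocount, scaling, filter, a replicate block, the 12-library fit and leaving out each library.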

Additional observations from a re-analysis of the deposited data

Results flagged for a closer look

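Each result here is a gene whose change from CT12 to CT24 differed between DZnep and DMSO by the limma test of that difference at an adjusted p under 0.05, and each value is the DZnep change minus the DMSO change on the log2(FPKM + 1) scale. All 58 kept their sign and stayed called without replicate 2 and without replicate 3 of DMSO at CT24, and calls lost without other libraries are given in the report, except those of Loxl2 and Sqle, which were lost without any one of 9 and of 10 libraries. No explanation was tested.

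Among contractile, matrix and BMP genes the difference was -1.49 for Tnnt2, -1.47 for Ctgf, -1.44 for Myl9 and -1.07 for Actg2. It was -0.94 for Id4, -0.75 for Smad9, -0.80 for Loxl3, -0.70 for Nid2 and -0.58 for Col5a1, while Bmp4 at 1.36 and Loxl2 at 0.38 were positive. All but these last 2 thus moved down relative to DMSO.

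In the inflammatory and interferon groups every difference was positive, at 1.61 for Serpina3n, 1.31 for Ccl5, 1.30 for Lcn2, 1.27 for Ccl7, 1.06 for Ccl2, 1.06 for Serpina3g and 0.96 for Cxcl1. The others were 0.89 for Cxcl10, 0.70 for Cxcl5, 0.64 for C3, 0.63 for Ifit3 and 0.54 for Ifit2.

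Among clock genes the difference was -1.50 for Dbp, -1.43 for Cry1, -1.21 for Per3, -0.98 for Tef, -0.88 for Per2 and -0.51 for Nfil3, and positive for Tipin at 0.60 and Timeless at 0.45. Among genes of replication, growth and metabolism it was 1.16 for Tk1, 0.81 for Mcm3, 0.64 for Nop56, 0.40 for Nolc1, 0.35 for Sqle and 0.31 for Amd1.

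Among the remaining genes the difference was negative for Sprr2h at -2.25, Ivl at -1.90, Cck at -1.79, U90926 at -1.16, Gjb2 at -0.98, Ngef at -0.81, Ptprn at -0.68, Kazald1 at -0.65 and Cc2d2a at -0.53. It was positive for Rffl at 1.60, Tubb3 at 1.29, Rnd3 at 1.15, Gas1 at 1.13, Marcks at 0.88, Fas at 0.84, Arl4c at 0.80 and Klf4 at 0.69. The smallest positive ones were Sfrp1 at 0.54, Rspo2 at 0.53, Btg2 at 0.45 and Igf2 at 0.41. The differences of Sprr2h and Ivl, genes near 0 in DMSO, largely repeat their DZnep changes.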

How the results depend on the processing

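The split of the DZnep time change, 3050 genes higher and 2836 lower, became 2481 to 2944 higher and 2374 to 2716 lower when any one of its 6 libraries was left out, 2113 and 1940 in the fit of all 12 libraries, and 66 and 71 when a log2 change of 1 was also required. The difference from DMSO, called for 349 and 317 genes, ranged from 145 to 1076 and from 149 to 863 over the 12 fits that each leave out 1 library. It was called for 20 and 34 genes at a log2 difference of 1 or more, and the negative count was 182 with a filter on a mean of 5 FPKM. With quantile normalization and without replicate 2 of DMSO at CT24, an alternative chosen after seeing the data, it was called for 591 and 509 genes, and the difference for Ahcy, 0.06 and not called otherwise, was -0.35 and called. The cause was not tested. All other alternatives for named genes kept the direction of every called value.

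With the replicate number as a block, 3227 genes were higher and 2985 lower with DZnep, and the difference was called for 284 and 253 genes. The numbers were not taken as pairs, since same-numbered DZnep libraries correlated at 0.331, -0.106 and 0.225 in their deviations from the group means, and not every library correlated best with its own number.

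Read depth is unknown, so no counting error is attached to low FPKM values. Adding 1 FPKM before the logarithm shrinks changes of genes near that level. With 3 libraries a group, the spread of the libraries in DMSO at CT24 weighs on every comparison with DMSO. More differences were called without replicate 3 of that group, 1076 and 863, than without replicate 2, 526 and 434.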

Other observations

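Other gene groups are given as values, beside the 29.0% of all genes that rose and the 26.9% that fell with DZnep. Of 25 tested genes of the TGF-beta pathway, 15 rose and 3 fell with DZnep (13 and 6 on deposited values), and 14 rose and 1 fell in DMSO. Smad3, a signal transducer of the pathway, changed by 0.83 against 0.63 and Tgfbi, a secreted target, by 0.81 against 0.58. Of 31 genes of glycolysis and hypoxia, 15 fell and 5 rose with DZnep, against 15 and 3 in DMSO. With DZnep 16 fell and 3 rose on deposited values, and 11 fell and 4 rose in the 12-library fit. The glycolytic enzyme gene Eno1 changed by -0.82 against -0.97 and the hexokinase gene Hk2 by -0.57 against -0.36. Of 20 glucocorticoid receptor targets, 10 rose and 4 fell with DZnep (8 and 5 on deposited values, 11 and 1 under quantile normalization), and 9 of 21 rose and 4 fell in DMSO. Cebpb, an early factor of that response chosen after its values were seen, changed by 1.05 against 0.58, and none of these 5 named genes had a called difference.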
